A study of Mus musculus with 6 samples.

Results

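The genes described here build the intermediate filaments of muscle and mesenchyme, the ropes of the cytoskeleton that are neither actin nor tubulin, together with the lamins that line the nucleus and plectin, which ties filaments to other structures. They are 8 of the 24964 gene symbols in the deposited table, namely Des, Synm, Vim, Nes, Plec, Lmna, Lmnb1 and Lmnb2. They were chosen by name from these protein families, with the values of the control and deficient libraries in this same table already known. The difference between the groups is therefore given for them as a description, and nothing is supported with it. All 8 entered the fit, whose filter was a mean level of 1 FPKM or more. FPKM is fragments counted on a gene, divided by the length of its model and by the size of the library.

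The libraries came from mouse uterus, sampled around the places where embryos had implanted, on day 13 of gestation. In 3 libraries the genotype is labelled control, and in the other 3 it is labelled as a myometrial knockout of PGR, the receptor for progesterone, where myometrium is the muscle wall of the uterus. The sources used here do not state the strain, the age of the mice, the alleles, the driver of the deletion or whether a library is 1 animal or a pool. The p-values below therefore measure the spread between libraries, which may be technical. The tissue was not restricted to muscle. Transcripts that define smooth muscle, stroma, epithelium, endothelium and macrophages were all present, while 8 trophoblast markers summed to at most 2.13 FPKM in any library, with Gcm1 and Hand1 listed at 0 in all 6.

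Summed FPKM lay between 357126 and 377091 per library, and the depth of single libraries is unknown. Pgr itself measured 9.72, 8.33 and 12.1 FPKM in controls 1, 2 and 3, and 11.3, 12.4 and 7.73 FPKM in the other group (limma adjusted p = 0.91, and p = 0.9 in an exact two-sided permutation test, where 0.1 is the smallest p possible). The table holds 1 value for the gene and the deleted part is not stated, so this level neither bears out the label nor goes against it. The second group is therefore called the libraries labelled deficient, and every direction here rests on that label. Library 3 stood apart in both groups. Over genes, which are no independent replicates, log2 levels correlated at 0.992 between controls 1 and 2 and at 0.991 between deficient 1 and 2. Control 3 correlated with the other controls at no more than 0.983, and deficient 3 with the others of its group at no more than 0.976.

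Intermediate filament proteins form coiled-coil dimers that assemble into filaments which stretch without breaking. In smooth muscle, desmin and vimentin filaments link the dense bodies, where actin is anchored, to each other and to the cell surface, and synemin joins them as a partner that cannot form filaments alone. Vimentin is the filament of fibroblasts, endothelium and other mesenchymal cells, and desmin is also known in decidual stroma of rodents. Lamins form the mesh under the inner nuclear membrane, where A-type lamins vary with tissue and stiffness and B-type lamins are made by most cells.

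In the controls, the filament genes spanned a wide range of levels per unit length of gene. Des stood highest at 1037 ± 124 FPKM (SD, n = 3), followed by Vim at 409.1 ± 99.0, Lmna at 92.5 ± 10.7 and Plec at 25.01 ± 1.78 FPKM. Below them came Synm at 20.2 ± 2.7, Lmnb1 at 14.8 ± 4.7, Lmnb2 at 8.01 ± 1.06 and Nes at 4.17 ± 1.02 FPKM. Neighbours in that order did not overlap between their 3 control libraries, with the exception of Synm and Lmnb1. In the libraries labelled deficient the order was different. Des at 359.4 ± 38.6 FPKM overlapped with Vim at 279.7 ± 44.9, and in deficient 3 Vim (329.0) lay above Des (320.1). Synm, at 5.75 ± 0.75 FPKM, had moved below both B-type lamins and overlapped with Nes at 5.18 ± 1.40 FPKM.

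**Figure D1:**
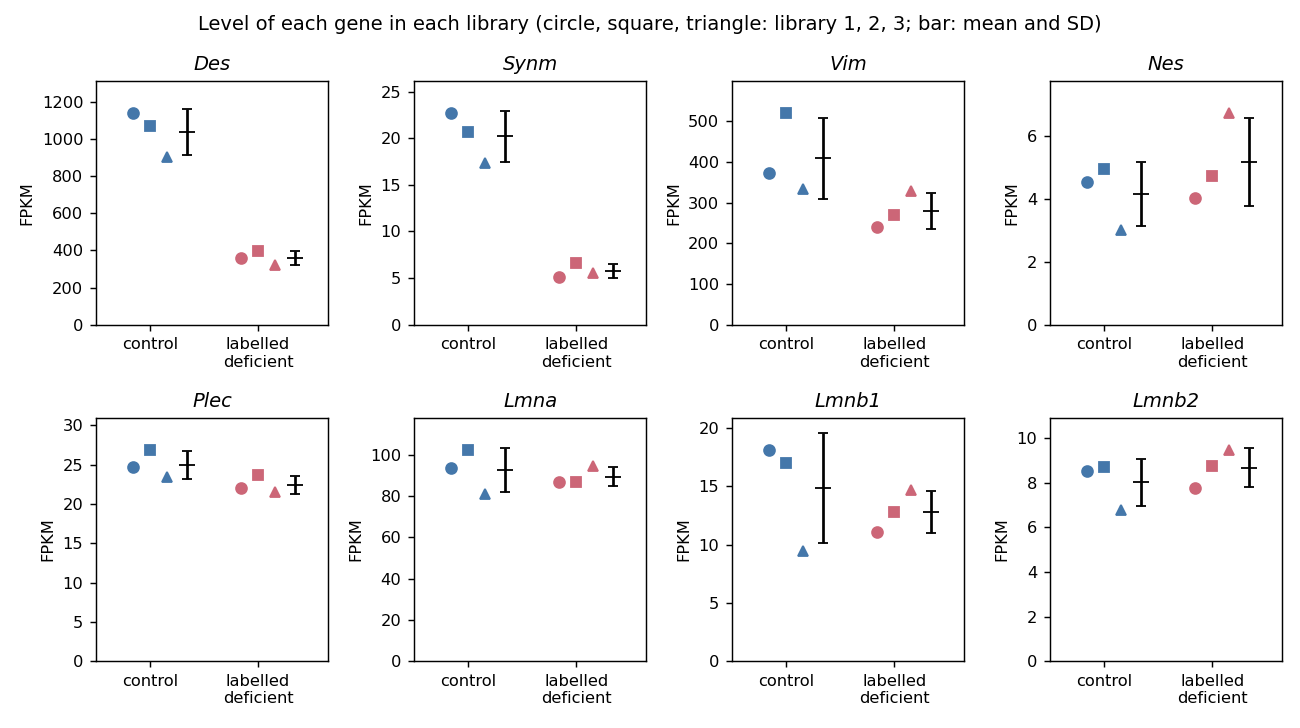
Level of each of the 8 genes in FPKM (vertical axis, starting at 0) in each control and each labelled deficient library, with circles, squares and triangles for libraries 1, 2 and 3 and a bar for the mean and SD (n = 3). Des and Synm are apart between the groups, Vim is apart by the narrow step from 332.4 to 329.0 FPKM, and the other 5 genes overlap.

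The limma fit over 12500 genes called 2 of the 8, Des and Synm, both lower in the libraries labelled deficient, against 3.34% of all genes tested in either direction, 1.99% lower and 1.34% higher. Because the genes were picked with this contrast in view, nothing is read from that count. The 3 values of each group lay apart for Des, Synm and Vim, where 29.0% of all genes were separated in either direction and 8.16% with the deficient libraries below. Scaling moved the balance of all calls, which was 249 lower to 168 higher as deposited, 391 to 123 with median-of-ratios scaling, 336 to 131 with quantile normalization and 211 to 218 after rescaling each library to the same sum. The median log2 difference over the 8 genes was -0.15, and over all genes tested it was 0.06. The median over the 8 was -0.09 without control 1, -0.07 without control 2, -0.31 without control 3 and -0.10 without deficient 1, and it was -0.31 with array weights and -0.35 without library 3 of both groups. Differences called log2 here are labelled deficient minus control in units of log2(FPKM + 1), where the added 1 shrinks the change of low genes. Levels and times lower are on the FPKM scale.

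**Figure D2:**
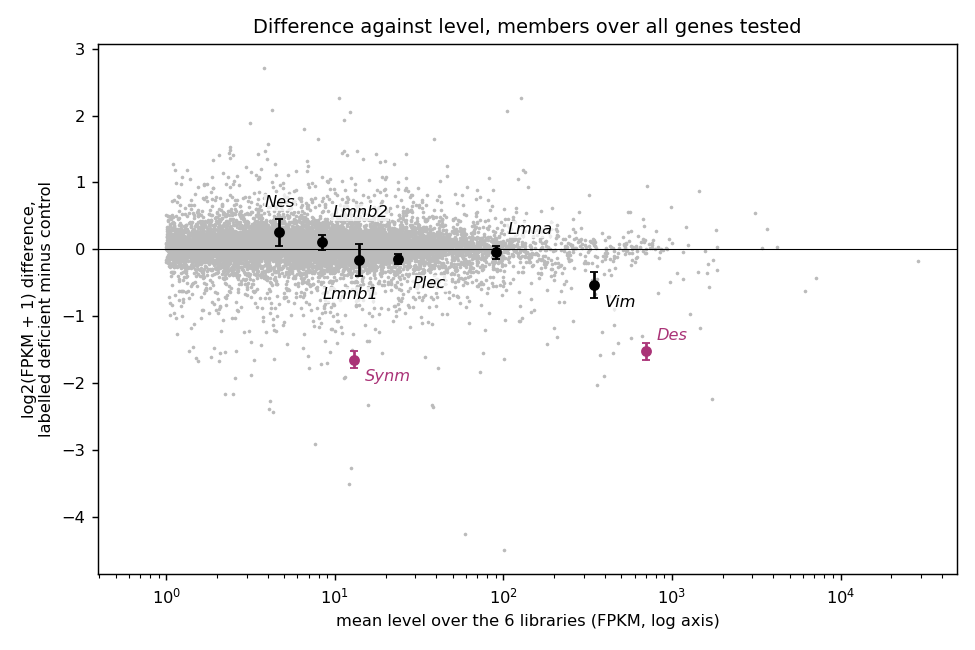
Difference in log2(FPKM + 1), labelled deficient minus control (vertical axis), against the mean level over the 6 libraries in FPKM (horizontal log axis), with grey points for the other genes tested and named points with SE bars for the 8 filament genes. Des at -1.52 and Synm at -1.65 lie well below 0, Vim lies at -0.53, and the other 5 lie between -0.16 and 0.25.

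Desmin is the type III filament protein of muscle and the most abundant of the group. Des measured 1139.8, 1072 and 899.9 FPKM in controls 1, 2 and 3, against 360.9, 397.2 and 320.1 FPKM in deficient 1, 2 and 3. Every deficient library was below the lowest control, and the mean was 2.89 times lower, a log2 difference of -1.52 (SE 0.13, 95% confidence interval from -1.83 to -1.22). Des made up 67.6%, 60.4% and 65.5% of the summed FPKM of the 8 genes in the controls. In the libraries labelled deficient its part was 48.8%, 49.1% and 39.9%.

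Synemin is a large type IV protein that depends on desmin or vimentin to enter filaments and binds proteins of the dense body and the cell surface. Synm measured 22.7, 20.6 and 17.3 FPKM in controls 1, 2 and 3, against 5.16, 6.60 and 5.5 FPKM in the 3 labelled deficient. The groups were wide apart, with a mean 3.52 times lower and a log2 difference of -1.65 (SE 0.12, interval from -1.95 to -1.35). Relative to Des, Synm was at 0.0199, 0.0193 and 0.0192 in the controls and at 0.0143, 0.0166 and 0.0172 in the libraries labelled deficient. The ratio of the pair was thus lower in each deficient library than in any control, a difference small beside that of either gene. Both genes kept their call in all 17 alternative settings, with Des between -1.62 and -1.38 and Synm between -1.79 and -1.57.

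The starts of these genes are shown because Des and Synm were the members that differed together. Des occupies positions 75360329 to 75368579 of chromosome 1 (plus strand) and Synm positions 67730160 to 67759742 of chromosome 7 (minus strand) (GENCODE M21, GRCm38, the assembly also called mm10). The 250 bases before the RefSeq start of each gene (GRCm38.p6) are written 5′ to 3′ on the strand of the gene, at chr1:75360042-75360291 for Des and chr7:67759743-67759992 for Synm. Capitals mark each CANNTG, the E-box read by basic helix-loop-helix factors.
Des: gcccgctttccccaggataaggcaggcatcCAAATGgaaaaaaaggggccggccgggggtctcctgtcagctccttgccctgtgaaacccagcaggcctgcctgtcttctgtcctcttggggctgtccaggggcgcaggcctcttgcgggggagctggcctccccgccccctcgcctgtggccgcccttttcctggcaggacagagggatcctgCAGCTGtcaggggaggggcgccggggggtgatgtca
Synm: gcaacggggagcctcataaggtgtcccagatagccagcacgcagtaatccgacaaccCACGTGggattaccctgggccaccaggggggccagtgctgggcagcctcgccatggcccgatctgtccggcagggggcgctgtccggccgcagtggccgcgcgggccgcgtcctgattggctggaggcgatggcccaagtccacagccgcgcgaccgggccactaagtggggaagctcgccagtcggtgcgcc

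The Des window held 2 E-boxes, CAAATG starting 220 bases before the start and CAGCTG, the form favoured by myogenic factors, starting 36 bases before it. The Synm window held 1, CACGTG, starting 193 bases before the start, and no CAGCTG. Over 32851 windows of 250 bases in the RefSeq promoter table, 66.2% held CANNTG and 13.0% held CAGCTG, which is 1 form of CANNTG, on either strand. Neither window held a CArG box, the site of serum response factor (1.47% of all windows), an MEF2 site (2.92%), TATAAA (12.4%) or ACANNNTGT, the core of the site shared by progesterone, androgen and glucocorticoid receptors (5.84%). GC content was 67.2% for Des and 70.0% for Synm, with a median of 52.4% over all windows. The Des window ends at position 75360291, short of the GENCODE start at 75360329. The bases between these positions were not searched, and distances are counted from the RefSeq start. These are matches of letters only, and the table had an entry for 6 of the 8 genes. Gm45102, an unconfirmed gene model on the other strand, overlaps the Synm gene.

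Muscle genes were among those most like Des and Synm over the 6 libraries. By Pearson correlation of log2(FPKM + 1), given as a description since the gap between the groups sets most of it, Des was closest to Actg2, the smooth muscle gamma actin (r = 0.999), Hspb1, a small heat shock protein (0.998), and Dmpk, the myotonic dystrophy kinase (0.997). Synm was closest to Dbndd2 (0.9997), Csrp1, a LIM protein of smooth muscle (0.999), and the tropomyosin Tpm1 (0.998). Between Des and Synm, r was 0.996.

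Smooth muscle transcripts moved with this pair. Of 15 markers of smooth muscle, with Des left out, 13 fell and 0 rose by limma with adjusted p under 0.05, with a median log2 difference of -0.91. Their summed level was between 9915 and 11850 FPKM in the controls and between 4306 and 5068 FPKM in the libraries labelled deficient, a mean 2.38 times lower. The leading members were Tpm2, another tropomyosin (log2 difference -1.40, limma adjusted p = 0.0022), Actg2 (-2.24, adjusted p = 0.0030), the actin-binding Tagln (-1.17, adjusted p = 0.0061) and Tpm1 (-1.32, adjusted p = 0.0061). Leaving out control 1 or control 2 reduced the number that fell to 5 in either case, and leaving out deficient 1 reduced it to 8. Des was at 9.62%, 9.68% and 9.08% of that sum in the controls and at 8.38%, 7.84% and 7.25% in the libraries labelled deficient. Markers of other desmin-bearing cells were split. Among 6 pericyte markers, with a median log2 difference of -0.07, 2 fell, Mcam (limma adjusted p = 0.021) and Cspg4 (adjusted p = 0.038), and 0 rose, with sums between 226.3 and 236.3 FPKM in the controls and between 201.2 and 205.9 FPKM in the other group. Both calls were lost without control 1, control 2 or deficient 1, Mcam's also without control 3 and Cspg4's also without deficient 2 or 3 (adjusted p up to 0.15). With the replicate block 0 pericyte markers were called, and 1 was called with no filter or after rescaling to the same sum. Pdgfrb, a receptor of pericytes, and Rgs5 were not called and lay above every control in the 3 libraries labelled deficient. Their log2 differences were 0.18 and 0.17. Among all genes tested, 29.0% were apart in either direction. Of 8 decidua markers tested, 0 passed limma and the median log2 difference was 0.09, with 2 genes where the libraries labelled deficient all lay below the controls and 2 where they all lay above. An unadjusted p under 0.05 was found for Prl8a2 and Hand2, both lower, and for Gja1, a connexin, with a log2 difference of 0.24. The list summed to between 158.4 and 465.4 FPKM in the controls and between 117.5 and 141.5 FPKM in those labelled deficient. That gap was carried by Prl8a2, a decidual prolactin-family gene, at 154.7, 354.6 and 60.4 FPKM against 5.44, 26.5 and 0.664 FPKM (adjusted p = 0.089). Without Prl8a2, left out after its values were seen, the sums overlapped. They were between 98.06 and 113.6 FPKM in the controls and between 112 and 120.2 FPKM in the other group. Gja1 was the largest part of what remained, with a control mean of 40.2 FPKM. The overlap of these sums does not measure the amount of decidua. The part that the amount of muscle, pericytes or decidua plays in Des and Synm was not tested, and in whole tissue, fewer muscle cells and less RNA per muscle cell cannot be told apart.

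Vimentin, the filament of mesenchymal cells, was second in level and its groups nearly met. Vim measured 374.0, 520.8 and 332.4 FPKM in controls 1, 2 and 3, against 241.2, 269.0 and 329.0 FPKM in the 3 labelled deficient. Control 3 and deficient 3 lay next to each other, while deficient 1 and 2 were below every control by a wider step. The mean was 1.46 times lower and the log2 difference -0.53 (SE 0.19, interval from -1.0 to -0.06), which the fit did not call. The difference was -0.79 without the third library of both groups, a setting chosen after seeing the data, and -0.34 without control 2, which holds the highest value. Of the 17 settings, 1 gave a call, array weights, under which libraries that scatter more count for less (-0.67). The ratio of Des to Vim was 3.05, 2.06 and 2.71 in the controls and 1.5, 1.48 and 0.973 in the libraries labelled deficient, so that the 2 filaments differed unequally between the groups.

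The summed level of markers of stroma, where vimentin is made, was lower by a smaller step. Of 9 fibroblast and stroma markers, 0 passed limma and 4 had an unadjusted p under 0.05, and their summed level was between 6014 and 6525 FPKM in the controls and between 5357 and 5487 FPKM in those labelled deficient. The sum was lower in every library labelled deficient, with a mean 1.16 times lower. Collagens held most of it, with Col1a1 and Col3a1 at control means of 1765 and 1588 FPKM in a mean sum of 6285. Of the 9 genes, 5 lay below every control in the libraries labelled deficient, 1 lay above and the others overlapped. Among all genes tested, 8.16% lay below and 29.0% were apart in either direction. The 4 genes with an unadjusted p under 0.05 were Col3a1, Pdgfra, Thy1 and Col1a1. Pdgfra, a receptor of stromal cells, had a log2 difference of 0.43, and the collagens Col3a1 and Col1a1 had -0.34 and -0.22. None of 8 endothelium and 8 macrophage markers passed limma, and none had an unadjusted p under 0.05. The closest genes to Vim by correlation were Mast4, Emid1 and Zmpste24, with r between 0.987 and 0.989 over the 6 libraries. The part of stroma in the level of Vim was not tested.

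Nestin is a type IV filament protein of progenitors, new vessels and nerve sheath cells, which assembles with vimentin or desmin. Nes measured 4.54, 4.95 and 3.02 FPKM in controls 1, 2 and 3, against 4.04, 4.74 and 6.75 FPKM in the 3 labelled deficient. The groups overlapped, with the lowest value in control 3 and the highest in deficient 3. The log2 difference of 0.25 (SE 0.21, interval from -0.25 to 0.75) was not called, and without the third library of both groups it was -0.09. The most alike gene was Gja4, a connexin of arterial endothelium (r = 0.997 over 6 libraries), at 6.02, 6.79 and 3.90 FPKM and 5.67, 6.42 and 9.57 FPKM. The summed endothelium markers were also highest in deficient 3, at 214.2 FPKM against between 160.8 and 191.9 in the other 5, but in control 3 (176.4 FPKM) they were next to control 1 (177.0 FPKM). Of 7 glia and nerve markers, 5 were under the filter, Sox10 among them at no more than 0.12 FPKM. Of the other 2, Erbb3, a neuregulin receptor also made by epithelium, rose (log2 difference 0.66, limma adjusted p = 0.020), a call lost without any 1 of controls 1 and 2 and deficient 1 and 2 (adjusted p up to 0.093). The part of vessels in the level of Nes was not tested.

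Plectin is the giant plakin that ties intermediate filaments to actin, to microtubules, to the nucleus and to junctions. Plec measured 24.7, 26.9 and 23.4 FPKM in controls 1, 2 and 3, against 22.1, 23.7 and 21.6 FPKM in the 3 labelled deficient. Only deficient 2 reached into the range of the controls, and the spread was small in both groups. The log2 difference was -0.15 (SE 0.07, interval from -0.33 to 0.03) and was not called in any of the 17 settings. The gene has 22 annotated transcripts, and the table gives 1 value for it. Of 12 other plakins and desmosome linkers tested, 2 rose and 0 fell, with a median log2 difference of 0.36. Those that rose were Dst, or dystonin (6.67 ± 0.31 to 8.89 ± 0.13 FPKM, SD, n = 3 each, limma adjusted p = 0.030), and the desmosomal plakophilin Pkp3 (7.81 ± 0.37 to 10.3 ± 0.4 FPKM, adjusted p = 0.037). Both calls were lost with median-of-ratios scaling (adjusted p up to 0.077) and with quantile normalization (up to 0.078), and without control 1, control 2, or any single library labelled deficient (up to 0.16). In the list as a whole, 3 genes rose without deficient 3, and 6 rose without library 3 of both groups.

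The lamin genes did not differ in a way that the fit called. Lmna, which encodes lamins A and C by splicing, measured 93.7, 102.5 and 81.2 FPKM in controls 1, 2 and 3, against 86.7, 86.8 and 94.7 FPKM in the 3 labelled deficient. All 3 libraries labelled deficient lay within the range of the controls, and the log2 difference was -0.04 (SE 0.10, interval from -0.28 to 0.20). The mean in the deficient group was 96.7% of that in the controls. For the B-type lamin gene Lmnb2, the values were 8.52, 8.72 and 6.78 FPKM and 7.77, 8.76 and 9.48 FPKM. Its log2 difference was 0.11 (SE 0.11, interval from -0.17 to 0.38), with the highest level in deficient 3 and the lowest in control 3, as for Nes.

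Lmnb1, the other B-type lamin gene, was the member whose difference moved most when library 3 of both groups was left out. It measured 18.1, 17.0 and 9.46 FPKM in controls 1, 2 and 3, against 11.1, 12.8 and 14.6 FPKM in the 3 labelled deficient. Control 3 was the lowest of all 6, while controls 1 and 2 were the highest, so the SD within the controls (4.70 FPKM) exceeded the difference between the means. The log2 difference was -0.16 (SE 0.24, interval from -0.73 to 0.42) and was not called. Without the third library of both groups, a setting chosen after seeing the data, it was -0.53 and the fit called it. That setting leaves out the lowest control and the highest library labelled deficient. The difference was 0.00 without control 1. The ratio of Lmnb1 to Lmnb2 was 2.13, 1.95 and 1.39 in the controls and 1.42, 1.46 and 1.54 in the libraries labelled deficient.

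Proliferation markers were highest in controls 1 and 2 and lowest in control 3, as Lmnb1 was. The 15 markers summed to 192.8, 204.2 and 108.8 FPKM in the controls and to 121.4, 115.5 and 182.5 FPKM in the libraries labelled deficient. By limma 0 of the 15 passed and 0 had an unadjusted p under 0.05. Without the third library of both groups, a setting chosen after seeing the data, 13 fell, and 1275 of all 12511 genes were called. Control 3 had the lowest sum of the controls and deficient 3 the highest of its group. Leaving both out therefore widens the gap by construction. Over the 6 libraries the genes most like Lmnb1 were Prim1, a DNA primase subunit (r = 0.9995), Mrpl42 (0.998) and Kif15, a mitotic kinesin (0.997). The part of dividing cells in the level of Lmnb1 was not tested. Control 3 held the lowest control value for all 8 genes.

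**Figure D3:**
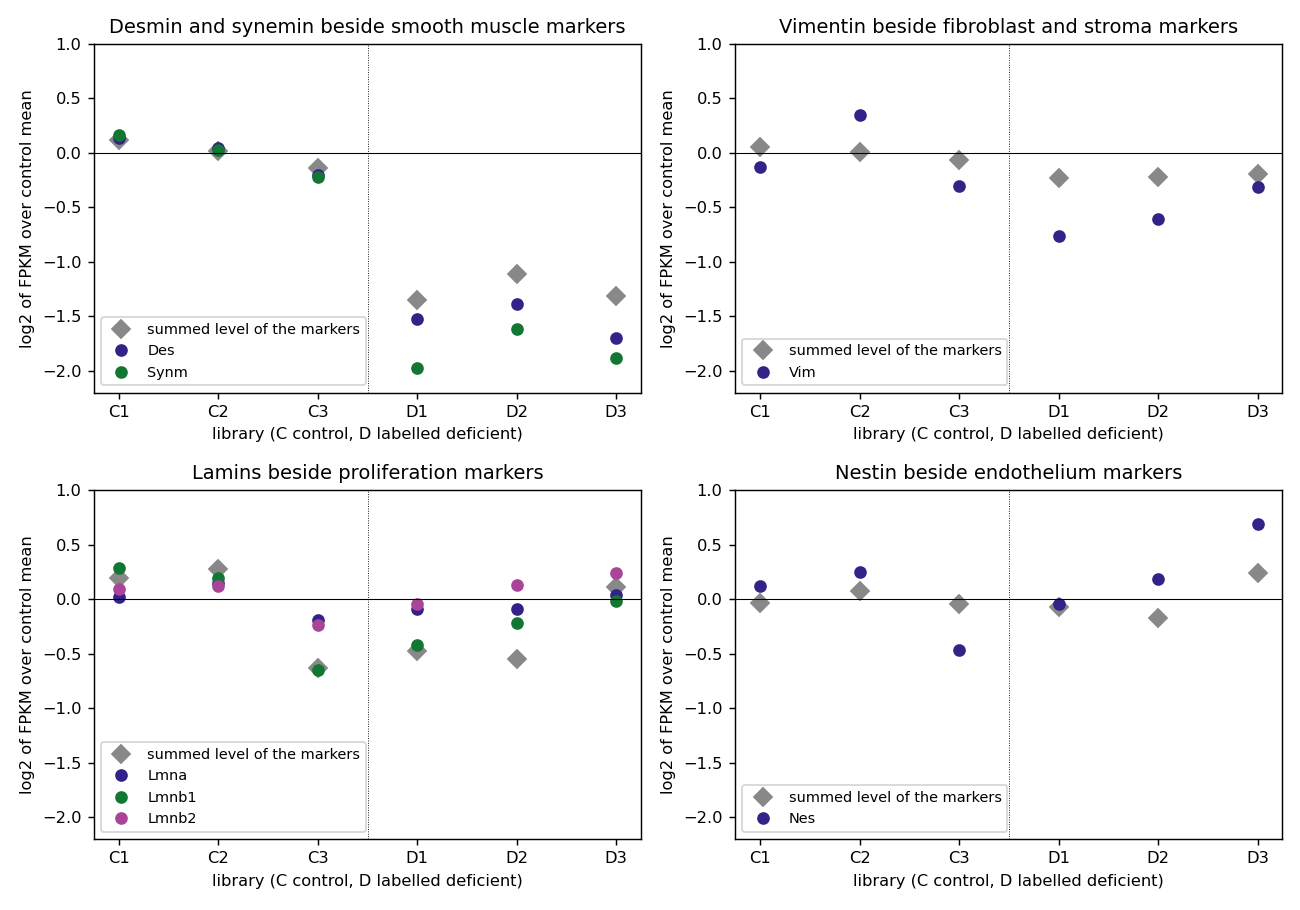
Level in each library as log2 of FPKM over the mean of the controls (vertical axis) for filament genes (circles) and for the summed markers of a cell type or of proliferation (grey diamonds), with controls left and libraries labelled deficient right of the dotted line. Des and Synm lie below the smooth muscle sum in every deficient library, and Lmnb1 and the proliferation sum are both lowest in control 3.

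Partners of the desmin network fell in part. Of 15 tested genes that bind or chaperone the network, 4 fell and 0 rose by limma, with a median log2 difference of -0.49. An unadjusted p under 0.05 was found for 9 of the 15, against 2682 of all 12500 genes tested. In 10 of the 15, every library labelled deficient lay below every control, where 8.16% of all genes did, and the others overlapped. Hspb1, the small heat shock protein that chaperones filaments and actin, measured 590.7, 600.6 and 496.8 FPKM in controls 1, 2 and 3, against 193.1, 197.6 and 171.8 FPKM in the 3 labelled deficient (log2 difference -1.58, SE 0.10, adjusted p = 0.0030). Fhl1, a LIM protein of muscle, fell by 1.31 (SE 0.11, adjusted p = 0.0045), from 296.3 ± 13.9 to 119.2 ± 16.5 FPKM. Dtna, the alpha-dystrobrevin that binds synemin and syncoilin, fell by 0.96 (adjusted p = 0.020), and Itgb1, the beta 1 integrin of the attachment sites, by 0.78 (adjusted p = 0.021). Dtna and Itgb1 lost their calls without control 1, control 2 or deficient 1 (adjusted p up to 0.10), which left 2 of the 4.

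Among 11 other filament genes of types III and IV and of uncertain type, 4 were tested. Sync, the syncoilin that joins desmin and dystrobrevin, measured 11.6, 12.2 and 12.2 FPKM in controls 1, 2 and 3, against 7.08, 8.17 and 7.71 FPKM in the 3 labelled deficient. It fell by 0.59 on the log2 scale (SE 0.07, limma adjusted p = 0.013), and the call was lost without control 1 (adjusted p = 0.056) or control 2 (0.066). Iffo1 and Iffo2 were not called and lay above every control in the 3 labelled deficient, with log2 differences of 0.05 and 0.24. Such a gap, in either direction, was found for 29.0% of all genes tested. Bfsp1, also not called, overlapped between the groups (-0.35). The neuronal, glial and lens filament genes Gfap, Prph, Ina, Nefl, Nefm, Nefh and Bfsp2 were under the filter, at no more than 0.335 FPKM in any library. Of 13 kinases and binding regulators tested, 1 fell, Rock2, a kinase that phosphorylates vimentin and desmin (13.6 ± 1.9 to 8.39 ± 0.05 FPKM, adjusted p = 0.027), and 0 rose. Leaving out control 1 or 3, or deficient 1 or 2, ended that call (adjusted p up to 0.10).

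Genes around the lamina resembled the lamins in passing no test. Of 16 lamina and envelope partners, limma called 0, and 3 had an unadjusted p under 0.05: the emerin gene Emd and the nurim gene Nrm, both lower, and the nucleoporin gene Nup210, higher. Emd measured 31.2, 28.0 and 24.8 FPKM in controls 1, 2 and 3, against 22.2, 23.4 and 22.4 FPKM in the 3 labelled deficient (log2 difference -0.29, adjusted p = 0.15). The median of this list was 0.05, and it was -0.01 after either quantile normalization or median-of-ratios scaling. Without the third library of both groups 2 fell, and with array weights 3 fell. None of 5 genes of the bridge between nucleus and cytoskeleton passed, Sun1, Sun2, Syne1 and Syne4 among them, and none of 5 lamin-processing enzymes, such as the prelamin protease gene Zmpste24 (22.3 ± 1.0 to 20.3 ± 0.7 FPKM). No gene of these last 2 lists had an unadjusted p under 0.05.

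Among keratins, the epithelial filaments, calls went in both directions. Of 9 tested, 1 rose and 1 fell. Krt19, of simple epithelium, measured 91.2, 72.0 and 72.3 FPKM in controls 1, 2 and 3, against 184.8, 168.3 and 139.2 FPKM in the 3 labelled deficient (log2 difference 1.05, SE 0.14, limma adjusted p = 0.018). That call did not survive leaving out control 2, control 3 or either of deficient 1 and 2 (adjusted p up to 0.078). Krt17, a keratin of basal and myoepithelial cells, went from 4.30 ± 0.51 to 0.858 ± 0.323 FPKM (log2 difference -1.52, adjusted p = 0.0064). Without the third library of both groups, 4 keratins rose and 1 fell. Of 7 epithelium markers tested, 1 rose, Cdh1 (limma adjusted p = 0.028), and 0 fell. The marker sum was between 322.9 and 362.8 FPKM in the controls and between 427.7 and 454.5 FPKM in the libraries labelled deficient. Of the 7, 4 lay above every control, where 29.0% of all genes were apart in either direction, and the others overlapped. The summed keratins overlapped, between 559.7 and 721.6 FPKM in the controls and between 622 and 1032 FPKM in the other group. The call of Cdh1 was kept without deficient 3 and lost without any other single library (adjusted p up to 0.12). The part of epithelial cells in the keratin levels was not tested.

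**Figure D4:**
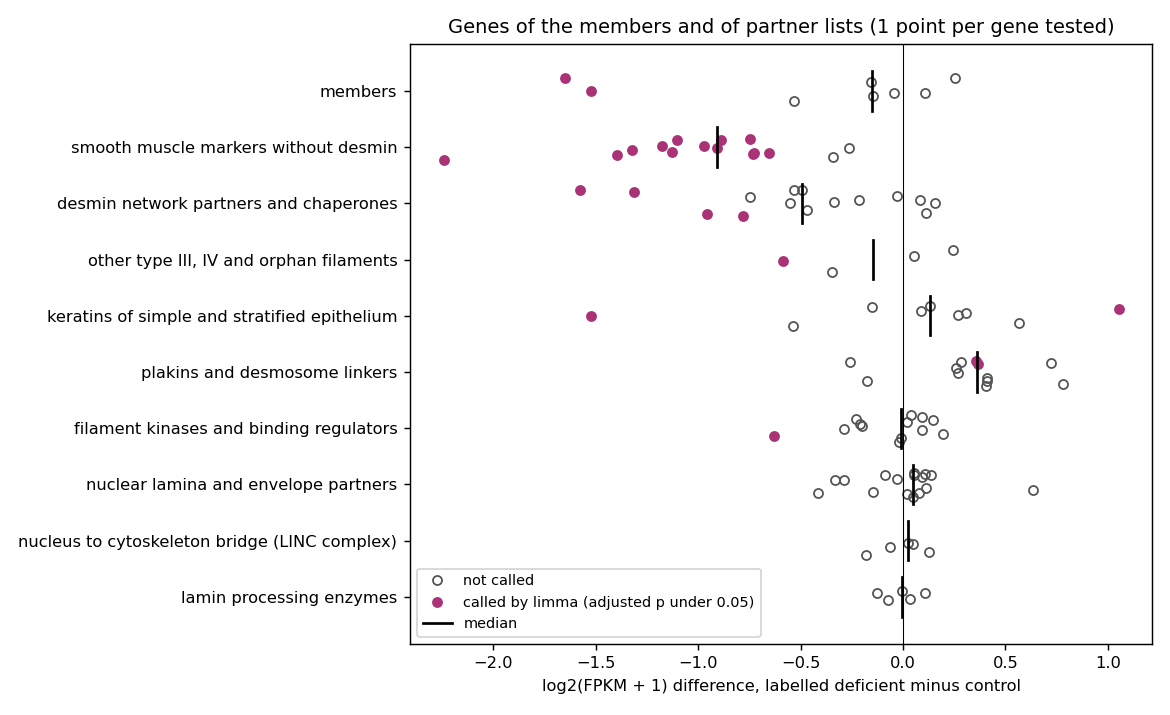
Difference in log2(FPKM + 1), labelled deficient minus control (horizontal axis), for each tested gene of the 8 filament genes and of 9 lists of related genes (rows), with filled points for genes called by limma and black bars for medians. The smooth muscle list has its median at -0.91 and the desmin partners at -0.49, while the lamina, bridge and processing lists lie around 0.

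Genes that overlap the members could share reads with them, since the sources used here do not state whether counting kept strand. Ttc23, on the strand opposite to Synm, was at 1.88 ± 0.08 FPKM in the controls and 2.17 ± 0.28 FPKM in the other group. Gm15179, antisense to Des, reached 0.080 FPKM. Parp10 overlaps one end of Plec on the same strand at a mean of 7.47 FPKM.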

How the data were processed

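RNA was sequenced from 6 uterine libraries, 3 control and 3 labelled deficient, of gestation day 13. Per the labels' protocols, RNA was extracted with TRIzol and libraries followed standard Illumina procedures. The authors deposited FPKM values, 1 column per library. The submitters' processing notes list mm10, DESeq2 1.24.0, STAR 2.7.0f and cutadapt 2.7, with no role or order. The sources used here do not state the counter, the annotation or the strand setting.

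All 12500 symbols with a mean of at least 1 FPKM were fitted with limma 3.58.1 in R 4.3.3 (intensity trend) on log2(FPKM + 1), with Benjamini-Hochberg adjustment over all of them and a threshold of 0.05. The code was tested on simulated data. The members, the lists and the alternatives were chosen with earlier results of these data known. Named genes are the 8 members, up to 4 genes per list with the smallest p, the 3 genes most correlated with each member, and Pgr. Genes under the filter and the overlapping genes were named after their values were seen. Alternatives covered the pseudocount, the filter, scaling, trend, array weights, the replicate block, each library left out and, added after seeing the data, library 3 of both groups left out. Depth is unknown, so no counting intervals are given. Columns left unmatched numbered 0.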

Additional observations from a re-analysis of the deposited data

How the results depend on the processing

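Des and Synm were called and lower in all 17 alternatives, and the number of members called was 2 in 15 of them and 3 with array weights (with Vim) or without library 3 of both groups (with Lmnb1). Of all genes, 1770 were called with array weights, 1275 without both of these libraries, 143 with the replicate block and between 99 and 525 with 1 library left out, and 326 with no filter on low values. Same-numbered libraries of the groups share a title number, and the sources used here do not state whether they share anything else. Deviations of same-numbered libraries from their group means correlated at -0.136, 0.0789 and -0.132, and those of other pairs between -0.132 and 0.2. With 3 libraries a group, these values cannot settle whether the libraries are paired. The cause of the shifts in the number of calls was not tested.

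Pgr differed by -0.019 with median-of-ratios scaling, by -0.0054 with quantile normalization and by between -0.078 and 0.23 with 1 library left out. With array weights, calls numbered 8 among desmin partners, 6 among plakins, 3 among filament kinases and 3 among lamina partners. Without library 3 of both groups they numbered 5 among keratins, 6 among plakins, 4 among filament kinases and 2 among lamina partners. With the replicate block they were 6 among smooth muscle markers and 0 among plakins and filament kinases. Plakins had 1 call with no filter and 0 with median-of-ratios scaling or quantile normalization, keratins 1 with a minimum mean of 5 FPKM, and filament kinases 2 with median-of-ratios scaling. With 1 library left out, calls ranged from 5 to 13 for smooth muscle markers, 2 to 5 for desmin partners, 0 to 1 for the other filaments, 1 to 3 for keratins, 0 to 3 for plakins and 0 to 1 for filament kinases. The other counts of calls in these lists stayed within 1.5 times. With 3 libraries a group, differences such as that of Vim, with an SE of 0.19, are poorly resolved.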
